A study of Homo sapiens with 60 samples.

Results

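SGK1, SGK2, SGK3, SCNN1A and NEDD4L are 5 of the 60675 genes in the count table of this series: the 3 serum- and glucocorticoid-regulated kinases, the alpha subunit of the epithelial sodium channel, and the ubiquitin ligase that the kinases act on. The genes were listed by symbol and chosen by their levels in these same libraries, so their values against vehicle and across doses are given as a description, without p-values. HepG2, a human hepatocellular carcinoma cell line, was treated for 24 h with a water extract at 500, 100 or 20 µg/mL, or with vehicle. The 4 single herbs were Astragali Radix, Cinnamomi Cortex, Cnidii Rhizoma and Rehmanniae Radix Preparata, and the 3 formulas that combine herbs were Samul-tang, Sagunja-tang and Palmul-tang. As vehicle the labels give 0.1% DMSO, whereas the design text of the series gives 2%. Each group had 3 libraries, except Palmul-tang with 1 library per dose, which gives 60 libraries in all. Nothing in the labels says that replicates came from separate cultures, so the errors below measure only the spread between these libraries. The sample codes in the labels begin with 5 for Cnidii Rhizoma and Rehmanniae Radix Preparata, 6 for Cinnamomi Cortex and Astragali Radix, 7 for Sagunja-tang and Samul-tang, 8 for Palmul-tang and B1 for vehicle. What this code marks is not given. It is called a set below, and against vehicle a difference of set and an effect of treatment cannot be told apart. The titles of all 60 libraries, vehicle included, carry the label BatchB.

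The 5 genes lie on 5 chromosomes of GRCh38, with positions from GENCODE release 29, and the values below are counts over whole genes. SGK1 (ENSG00000118515) spans 134169246 to 134318112 of chromosome 6 on the minus strand. SGK2 (ENSG00000101049) spans 43558968 to 43588237 of chromosome 20 on the plus strand, and SGK3 (ENSG00000104205) spans 66667596 to 66862022 of chromosome 8 on the plus strand. SCNN1A (ENSG00000111319) spans 6346843 to 6377730 of chromosome 12 on the minus strand, and NEDD4L (ENSG00000049759) spans 58044367 to 58401540 of chromosome 18 on the plus strand.

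The epithelial sodium channel lets sodium cross the apical membrane of epithelia such as the kidney collecting duct, where aldosterone raises its activity, and it is built mainly from alpha, beta and gamma subunits. NEDD4L ubiquitinates channel subunits, which takes the channel off the surface, and SGK1 phosphorylates NEDD4L, which then binds 14-3-3 proteins and leaves the channel alone. SGK1 itself is induced by glucocorticoids, mineralocorticoids, serum and osmotic shrinkage, and is activated by mTORC2 and PDK1 below phosphoinositide 3-kinase. SGK2 and SGK3 are related kinases, and SGK3 carries a domain that binds phosphoinositides on endosomes.

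Total counts ran from 16.5 M to 34.4 M per library, with a median of 25.5 M. Levels are counts-per-million values (CPM) after scaling by TMM, a normalization that sets libraries to a common composition. Liver markers were high in every group: ALB had a median of 10000 CPM, AFP of 13000 CPM and APOB of 16000 CPM. Of 9 markers of other cell types, AQP2 and KRT5 had no read, UMOD, CD3E and PTPRC had 1 to 3 reads in 60 libraries together, and CD68 (median 57.6 CPM) and ACTA2 (median 63.9 CPM) were expressed. Cinnamomi Cortex at 500 µg/mL stood apart: its 3 libraries had TMM factors of 0.834 to 0.863 against 0.916 to 1.05 in the other 57. Of the 7 liver markers at 500 µg/mL, edgeR called 3 higher and 2 lower with Cinnamomi Cortex, beside 62.7% of all tested genes. It called 1 higher and 3 lower with Sagunja-tang (12.3% of all genes), and 1 higher and 2 lower with Samul-tang (13.7%). With Cnidii Rhizoma (11.8%) and Rehmanniae Radix Preparata (7.45%) 1 was called higher in each, and with Astragali Radix (3.04%) 1 lower.

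All 5 genes passed the filter on low counts. A change is called where its edgeR p, adjusted over the 16167 genes tested, is under 0.05. SGK1 had 334 to 1048 reads per library, SGK2 613 to 1385, SGK3 290 to 803, SCNN1A 165 to 490 and NEDD4L 3397 to 7309. The median coefficient of variation within a group was 6.18% for SGK1, 4.08% for SGK2, 6.58% for SGK3, 6.32% for SCNN1A and 1.79% for NEDD4L. Counting error alone, at each gene's median reads, would give 3.91%, 3.10%, 4.24%, 5.61% and 1.35% in the same order.

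Compared per kilobase of merged exon length in vehicle, NEDD4L was the highest of the 5 at 11.3 ± 0.28 CPM per kb (SD, n = 3). SGK2 was the highest of the kinases at 7.39 ± 0.39 CPM per kb, above SGK3 at 3.56 ± 0.10 and SGK1 at 3.11 ± 0.22. SCNN1A stood at 2.64 ± 0.34 CPM per kb. Its partner subunits were near absent: SCNN1B had 1 read and SCNN1G had 3 reads in all 60 libraries, and 3 reads in a single library equal 0.087 to 0.18 CPM. SCNN1D, the delta subunit, stood at 0.357 ± 0.027 CPM per kb. Its dose trend was called in Cinnamomi Cortex alone, at -0.32 ± 0.11 on the log2 scale (SE, edgeR adjusted p = 0.00864). AKT1, a kinase of the same family under the same activators, had 11.3 ± 0.68 CPM per kb.

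SGK1 was lower at 500 and 100 µg/mL of all 6 replicated extracts and near vehicle at 20 µg/mL. Its mean was highest at 20, lower at 100 and lowest at 500 µg/mL in each of the 6. The lowest group was Cnidii Rhizoma at 500 µg/mL, 43.2% below vehicle in the fitted model. Vehicle libraries read 30.8, 29 and 33.4 CPM. In bulk RNA, fewer cells expressing a gene and less RNA per cell cannot be told apart.

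In Cnidii Rhizoma, SGK1 read 17.8, 17.4 and 17.7 CPM at 500 µg/mL, 24.3, 23.2 and 26.7 at 100 µg/mL and 28.4, 27.9 and 30.4 at 20 µg/mL. Rehmanniae Radix Preparata, the herb with which it shares a set, read 20.9, 21.3 and 20.3 CPM at 500, 21.0, 21.9 and 20.4 at 100 and 26.4, 26.6 and 30.1 at 20 µg/mL. In Cnidii Rhizoma the libraries of the 3 doses did not overlap at either step, whereas in Rehmanniae Radix Preparata the 500 and 100 µg/mL libraries overlapped. Cinnamomi Cortex read 28.6, 22.4 and 22.5 CPM for SGK1 at 500, 28.1, 22.9 and 24.9 at 100 and 35.5, 30.9 and 31.9 at 20 µg/mL. Astragali Radix read 23.9, 20.3 and 21.8 CPM at 500, 28.3, 23.4 and 25.2 at 100 and 34.1, 27.6 and 30.5 at 20 µg/mL. In both of these extracts the 500 and 100 µg/mL libraries overlapped, and replicate 1 was the highest of 3 in each of the 6 groups of their set. Sagunja-tang read 21.6, 21.7 and 21.4 CPM at 500, 23.4, 24.0 and 25.1 at 100 and 30.5, 29.3 and 32.4 at 20 µg/mL. Samul-tang read 21.1, 19.3 and 20.6 CPM at 500, 21.6, 24.3 and 22.2 at 100 and 28.6, 30.2 and 31.8 at 20 µg/mL. In both formulas every 500 µg/mL library lay below every 100 µg/mL library, and every 100 below every 20 µg/mL library.

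**Figure D1:**
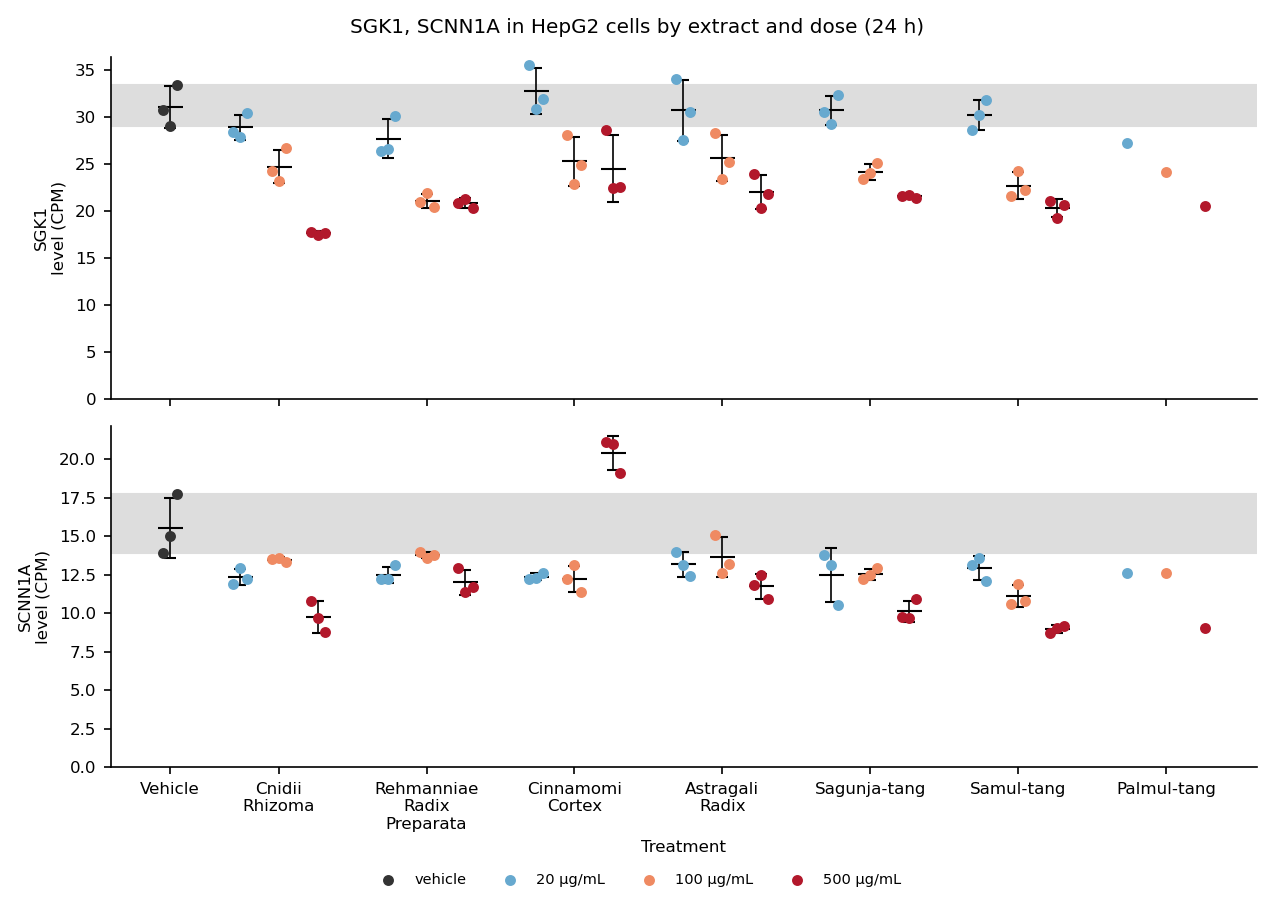
SGK1 (top) and SCNN1A (bottom) in CPM on a linear axis from 0, by extract and dose. Each point is 1 library, black marks are means with SD where n = 3, and the grey band is the range of the 3 vehicle libraries. All 18 SGK1 libraries of the replicated extracts at 500 µg/mL lie below the band, and the SCNN1A libraries of Cinnamomi Cortex at 500 µg/mL lie above it.

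Against vehicle at 500 µg/mL, the log2 change of SGK1 was -0.82 ± 0.083 (SE) for Cnidii Rhizoma and -0.58 ± 0.080 for Rehmanniae Radix Preparata. The other values were -0.34 ± 0.080 for Cinnamomi Cortex, -0.50 ± 0.081 for Astragali Radix, -0.52 ± 0.079 for Sagunja-tang and -0.61 ± 0.081 for Samul-tang. These 6 comparisons share the vehicle libraries. None of the treated groups overlapped vehicle at 500 or 100 µg/mL, and all 6 overlapped it at 20 µg/mL, where log2 changes ran from -0.16 to 0.08. At 100 µg/mL the changes ran from -0.56 in Rehmanniae Radix Preparata to -0.28 in Astragali Radix. Without vehicle replicate 3 the calls for Cnidii Rhizoma (-0.27), Cinnamomi Cortex (-0.24) and Astragali Radix (-0.22) at this dose were lost. That for Astragali Radix was also lost without vehicle replicate 1 or 2, without its own replicate 2 or 3, and with a fit of the compared groups alone. The call for Cnidii Rhizoma was also lost without its own replicate 1 or 2, and that for Cinnamomi Cortex without its own replicate 2. Without the replicate 1 libraries of its set, the change with Cinnamomi Cortex at 500 µg/mL was -0.46.

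The dose trend is the log2 change per 5-fold step in dose; over 3 equally spaced doses its estimate uses the 500 and 20 µg/mL libraries and needs no vehicle. For SGK1 it was -0.36 ± 0.041 (SE) in Cnidii Rhizoma, -0.21 ± 0.041 in Rehmanniae Radix Preparata and -0.21 ± 0.040 in Cinnamomi Cortex. It was -0.24 ± 0.041 in Astragali Radix, -0.25 ± 0.040 in Sagunja-tang and -0.29 ± 0.040 in Samul-tang. At 500 µg/mL the mean was between 61.1% (Cnidii Rhizoma) and 75.1% (Rehmanniae Radix Preparata) of that extract's own 20 µg/mL mean. Without replicate 3 of the 20 µg/mL group, the SGK1 trend in Rehmanniae Radix Preparata was -0.17 and was no longer called.

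**Figure D2:**
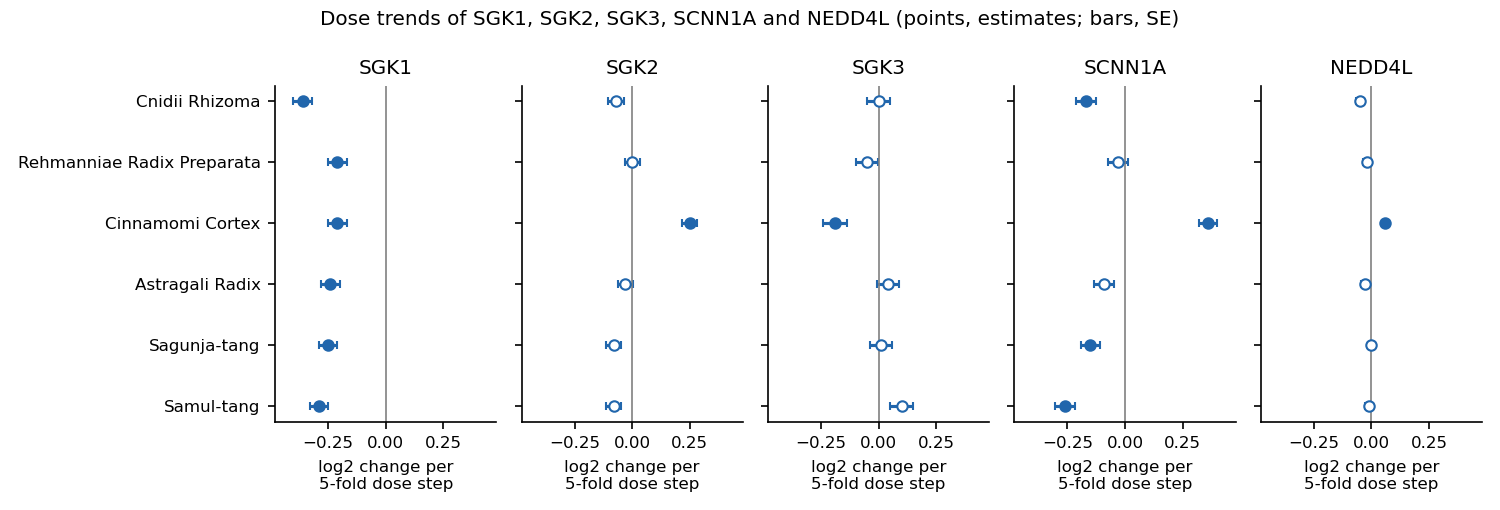
Dose trends of the 5 genes in the 6 replicated extracts, as the log2 change per 5-fold step in dose on a linear axis; points are edgeR estimates, bars are SE and filled points were called. SGK1 lies between -0.36 and -0.21 in all 6, and SCNN1A and SGK2 lie to the right of 0 in Cinnamomi Cortex, at 0.36 and 0.25.

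In the order of the 19 group means, SGK1 was highest in Cinnamomi Cortex at 20 µg/mL (32.8 ± 2.40 CPM, SD, n = 3), followed by vehicle (31.1 ± 2.20 CPM) and the other 5 groups at 20 µg/mL. Only 1 of the 18 pairs of neighbours in this order did not overlap: Samul-tang at 500 µg/mL stood apart from Cnidii Rhizoma at 500 µg/mL, the last. Palmul-tang, with single libraries and no test, read 20.5 CPM at 500 µg/mL (95% Poisson interval 19 to 22.2), 24.2 at 100 µg/mL (22.3 to 26.2) and 27.2 at 20 µg/mL (25.4 to 29.1). All 3 lay below the vehicle range, and the intervals cover counting error only.

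The SGK1 gene has several annotated starts, which the gene counts merge. RefSeq (build GRCh38.p14) lists 3 start windows for SGK1, and the 250 bases before the start of the nearest and the farthest to the gene's 3′ end are shown, since SGK1 is the gene that was lower with every extract. Capitals mark GGGCGG (the GC box) and TATAAA (the TATA box) on either strand; no 2 matches overlap.
SGK1, chr6:134174867-134175116, minus strand: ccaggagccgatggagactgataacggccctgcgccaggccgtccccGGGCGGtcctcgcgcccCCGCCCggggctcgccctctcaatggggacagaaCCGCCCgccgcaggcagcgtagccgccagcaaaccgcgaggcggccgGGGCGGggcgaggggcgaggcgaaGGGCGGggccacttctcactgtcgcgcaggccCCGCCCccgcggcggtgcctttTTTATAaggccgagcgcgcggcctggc
SGK1, chr6:134318113-134318362, minus strand: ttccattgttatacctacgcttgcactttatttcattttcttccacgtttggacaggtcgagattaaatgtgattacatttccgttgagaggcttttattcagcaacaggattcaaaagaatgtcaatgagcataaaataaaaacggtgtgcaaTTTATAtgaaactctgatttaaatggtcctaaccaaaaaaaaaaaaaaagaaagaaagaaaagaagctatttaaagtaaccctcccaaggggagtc
The first window holds 76.0% G and C with 6 matches to GGGCGG, at 49 to 203 bases before the start, and 1 match to TATAAA at 27 bases. The second holds 33.6% G and C with 1 match to TATAAA at 96 bases. Of 35116 windows of this length in the table, 42.6% hold GGGCGG and 10.7% hold TATAAA, and the median G and C content is 58.0%. AGAACA (the glucocorticoid half-site, in 12.4% of windows), TGACGTCA (CRE, 1.65%), TGACTCA (AP-1, 4.20%), CACGTG (E-box, 6.34%) and TGTTTAC (FOXO, 2.98%), searched on both strands, are not among the letters of either window. A match is a description of the letters, and which start was used was not measured.

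SGK2, a kinase found mainly in liver, kidney and pancreas, was called higher in a single group. At 500 µg/mL of Cinnamomi Cortex its libraries read 54.4, 58.7 and 62.7 CPM, against 36.3, 38.2 and 40.4 in vehicle. At 100 µg/mL they read 37.5, 36.3 and 40.8 CPM and at 20 µg/mL 38.0, 46.4 and 40.4, both overlapping vehicle. The log2 change at 500 µg/mL was 0.61 ± 0.064 (SE), or 52.7% above vehicle. The 45 libraries of the other 5 replicated extracts lay between 34.6 and 45.1 CPM with a median of 39.6, and no change was called there. Log2 changes at 500 µg/mL in those extracts ran from -0.07 in Samul-tang to 0.05 in Rehmanniae Radix Preparata. In the order of 19 means Cinnamomi Cortex at 500 µg/mL stood apart from the next, Cnidii Rhizoma at 20 µg/mL (42.7 ± 2.52 CPM), and the other 17 neighbouring pairs overlapped. Palmul-tang read 36.1, 35.6 and 39.4 CPM at 500, 100 and 20 µg/mL.

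SGK3 moved the other way in that group. Its libraries read 17.6, 13.3 and 17.4 CPM with Cinnamomi Cortex at 500 µg/mL, against 22.3, 23.2 and 23.6 CPM in vehicle, a log2 change of -0.51 ± 0.10 (SE). At 100 µg/mL they read 22.9, 18.7 and 22.5 CPM and at 20 µg/mL 21.3, 21.3 and 20.5 CPM. The 20 µg/mL libraries also lay below vehicle, with a log2 change of -0.13 ± 0.095 that was not called. The same held for Cnidii Rhizoma at 500, 100 and 20 µg/mL (-0.15, -0.14 and -0.15). It held too for Rehmanniae Radix Preparata at 500 µg/mL (-0.16), and none of these was called. The 45 libraries of the other 5 extracts ranged from 15.4 to 27.7 CPM with a median of 22.0. Of those 15 groups only Samul-tang at 20 µg/mL was called, at -0.28 ± 0.096, with libraries at 20.5, 15.4 and 21.4 CPM. Without the library at 15.4 CPM its change was -0.14 and was not called, and the call was also lost without any 1 of the vehicle libraries. No 2 neighbours in the order of SGK3 means stood apart. Palmul-tang read 22.4, 23.6 and 21.8 CPM at 500, 100 and 20 µg/mL. The SGK3 gene overlaps C8orf44 on the same strand, which had 1.51 ± 0.476 CPM in vehicle and 1.44 ± 0.200 CPM with Cinnamomi Cortex at 500 µg/mL (n = 3 each), so reads of both genes may be split between them.

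**Figure D3:**
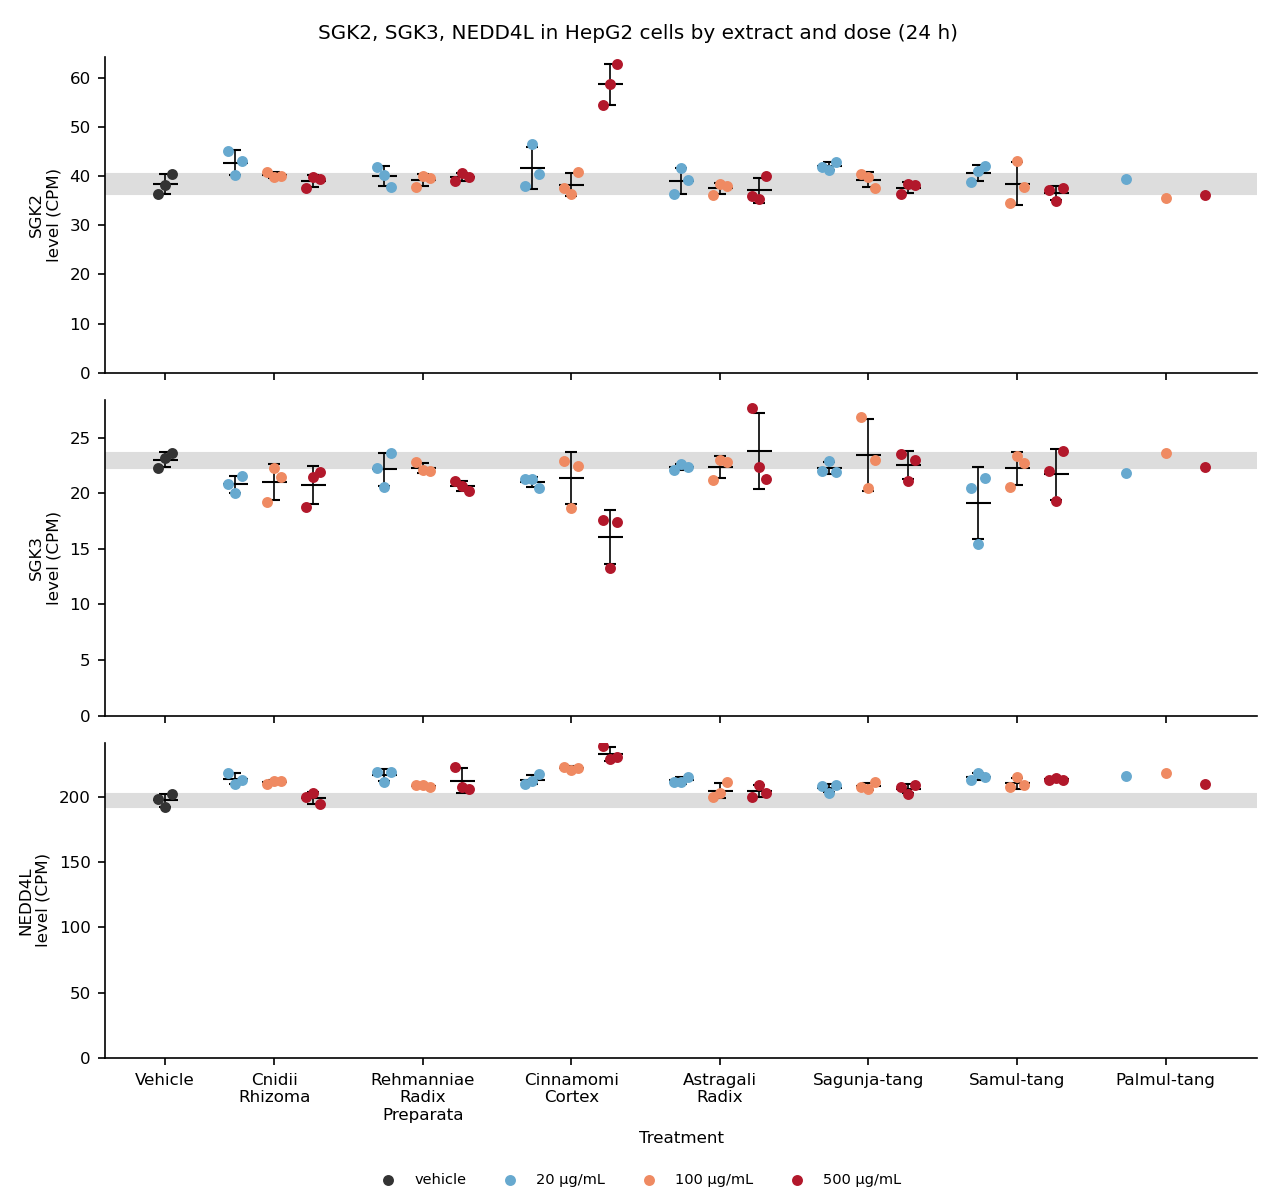
SGK2, SGK3 and NEDD4L in CPM on linear axes from 0, by extract and dose. Each point is 1 library, black marks are means with SD where n = 3, and grey bands are vehicle ranges; Cinnamomi Cortex at 500 µg/mL is highest for SGK2 (58.6 CPM) and NEDD4L (233 CPM) and lowest for SGK3 (16.1 CPM).

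SCNN1A was lower than vehicle at 500 µg/mL of 5 extracts and higher with Cinnamomi Cortex. Vehicle libraries read 13.9, 15.0 and 17.7 CPM. With Cinnamomi Cortex SCNN1A read 21.1, 21.0 and 19.1 CPM at 500 µg/mL, above every other library of the 60. At 100 µg/mL of that extract it read 12.2, 13.1 and 11.4 CPM and at 20 µg/mL 12.2, 12.3 and 12.6 CPM, all below vehicle. The 500 µg/mL mean was thus 165% of the extract's own 20 µg/mL mean.

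In Samul-tang the SCNN1A libraries were lower at each higher dose without overlap, reading 8.71, 9.04 and 9.18 CPM at 500, 10.6, 11.9 and 10.8 at 100 and 13.1, 13.6 and 12.1 at 20 µg/mL. Cnidii Rhizoma read 10.8, 9.68 and 8.75 CPM at 500, 13.5, 13.6 and 13.3 at 100 and 11.9, 12.9 and 12.2 at 20 µg/mL. Sagunja-tang read 9.75, 9.69 and 10.9 CPM at 500, 12.2, 12.5 and 12.9 at 100 and 13.8, 13.1 and 10.5 at 20 µg/mL. In these 3 extracts the 500 µg/mL libraries were lowest, except that in Sagunja-tang 1 library at 20 µg/mL fell among them. Rehmanniae Radix Preparata read 12.9, 11.4 and 11.7 CPM at 500, 14, 13.6 and 13.8 at 100 and 12.2, 12.2 and 13.1 at 20 µg/mL. Astragali Radix read 11.8, 12.5 and 10.9 CPM at 500, 15.1, 12.6 and 13.2 at 100 and 14, 13.1 and 12.4 at 20 µg/mL. In both the 500 µg/mL libraries overlapped those at 20 µg/mL. Palmul-tang read 9.02 CPM at 500 µg/mL (95% Poisson interval 8.01 to 10.1) and 12.6 CPM at both lower doses, below the vehicle range at each.

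At 500 µg/mL the log2 change of SCNN1A against vehicle was 0.39 ± 0.079 (SE) for Cinnamomi Cortex. It was -0.79 ± 0.086 for Samul-tang, -0.67 ± 0.085 for Cnidii Rhizoma and -0.62 ± 0.083 for Sagunja-tang. Smaller values were -0.41 ± 0.084 for Astragali Radix and -0.38 ± 0.082 for Rehmanniae Radix Preparata. All 6 groups lay outside the vehicle range. At 20 µg/mL the changes of all 6 extracts, Cinnamomi Cortex included at -0.33, lay below vehicle, from -0.34 to -0.24, and 5 of 6 were called. Dose trends, which leave the vehicle out, were 0.36 ± 0.040 for Cinnamomi Cortex, -0.26 ± 0.043 for Samul-tang, -0.17 ± 0.043 for Cnidii Rhizoma and -0.15 ± 0.042 for Sagunja-tang. The calls for Cnidii Rhizoma and Sagunja-tang were lost under some alternatives: with a fit of the compared groups alone the values were the same but not called, and without a single library they were as small as -0.13 (Cnidii Rhizoma, without replicate 3 at 500 µg/mL) and -0.11 (Sagunja-tang, without replicate 1 at 20 µg/mL), not called. The trends of -0.09 ± 0.043 for Astragali Radix and -0.03 ± 0.043 for Rehmanniae Radix Preparata were not called. Vehicle replicate 3 decided some of these calls: without it the change at 500 µg/mL was -0.30 for Astragali Radix and -0.27 for Rehmanniae Radix Preparata, no longer called, and none of the 20 µg/mL changes was called.

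SCNN1A overlaps LTBR, the lymphotoxin beta receptor, on the opposite strand. The library kit kept strand per the labels, but the strand setting of the counting is not given in the sources used here, so shared reads cannot be told apart. LTBR had 48.4 ± 2.67 CPM in vehicle and 77.0 ± 1.34 CPM with Cinnamomi Cortex at 500 µg/mL (n = 3 each), a log2 change of 0.67 (edgeR adjusted p = 7.09e-14). In Samul-tang and Cnidii Rhizoma at 500 µg/mL, where SCNN1A was lowest, the LTBR changes were -0.03 and 0.07 (adjusted p = 0.81 and 0.542). LTBR was called higher with Rehmanniae Radix Preparata at 500 µg/mL (0.21, edgeR adjusted p = 0.0226), where SCNN1A was lower. It stood at 0.17 with Sagunja-tang (adjusted p = 0.0536) and 0.08 with Astragali Radix (adjusted p = 0.581). The part of LTBR reads in the SCNN1A values was not tested.

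NEDD4L varied least. Its 60 libraries lay between 192 and 239 CPM, and vehicle was the lowest of the 19 groups with libraries at 198, 192 and 202 CPM. Cinnamomi Cortex read 239, 229 and 230 CPM at 500 µg/mL, 223, 220 and 222 at 100 and 210, 212 and 217 at 20 µg/mL. This was the only extract in which the libraries rose without overlap at both dose steps. Its log2 changes against vehicle were 0.24 ± 0.031 (SE), 0.17 ± 0.031 and 0.11 ± 0.031 from the high to the low dose, and its dose trend was 0.06 ± 0.016. In the other 5 extracts trends ran from -0.05 to 0.00 and edgeR called none, whereas the DESeq2 Wald test called that of Cnidii Rhizoma (-0.05), as did edgeR without its replicate 2 at 500 µg/mL (-0.06). Against vehicle edgeR called 2 of these 5 extracts at 500 µg/mL, Rehmanniae Radix Preparata and Samul-tang, and 4 of 5 at 20 µg/mL, all but Sagunja-tang. These 6 calls, and that of Cinnamomi Cortex at 20 µg/mL, were lost without the filter on low counts and with a fit of the compared groups alone, and all but that of Samul-tang at 20 µg/mL also without vehicle replicate 2; the values then lay between 0.08 and 0.13. Without the filter, the calls of Cinnamomi Cortex at 100 µg/mL (0.15) and for its trend (0.06) were lost too. Against the 20 µg/mL group of the same extract the 500 µg/mL change was -0.03 for Rehmanniae Radix Preparata and -0.01 for Samul-tang. Palmul-tang read 210, 218 and 216 CPM at 500, 100 and 20 µg/mL, all above the vehicle range.

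Counted together at 500 µg/mL, 5 of the 5 genes were called with Cinnamomi Cortex, where 62.7% of all tested genes were called. The count was 2 with Cnidii Rhizoma (background 11.8%), 3 with Rehmanniae Radix Preparata (7.45%), 2 with Astragali Radix (3.04%), 2 with Sagunja-tang (12.3%) and 3 with Samul-tang (13.7%). At 100 µg/mL the counts were 1, 1, 3, 1, 2 and 2 for Cnidii Rhizoma, Rehmanniae Radix Preparata, Cinnamomi Cortex, Astragali Radix, Sagunja-tang and Samul-tang, with backgrounds of 3.58%, 4.17%, 19.4%, 2.26%, 8.85% and 8.08%. At 20 µg/mL, in the same order, they were 2, 2, 2, 1, 1 and 3, with backgrounds of 6.49%, 7.18%, 7.16%, 3.93%, 11.4% and 20.7%. For the dose trend they were 2, 1, 5, 1, 2 and 2, with backgrounds of 3.22%, 0.674%, 61.9%, 1.16%, 4.99% and 9.88%. Because the genes were selected by these same values, nothing is read from the counts. Differences between the dose trends of 2 extracts of a set were called for 50.9% of genes (Cinnamomi Cortex minus Astragali Radix), 0.068% (Cnidii Rhizoma minus Rehmanniae Radix Preparata) and 0.142% (Sagunja-tang minus Samul-tang); 4 of the 5 genes were called in the first and none in the others.

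Around these genes, 82 pathway genes in 7 lists were followed, of which 70 passed the filter. Their changes were tested with edgeR's quasi-likelihood test with Benjamini-Hochberg adjustment over all 16167 genes. The lists, and the rule for naming genes by adjusted p, were chosen with earlier results of these data known. The adjusted p-values and the shares called are thus given as a description. At 500 µg/mL against vehicle 43 rose and 14 fell with Cinnamomi Cortex, a median log2 change of 0.24 beside -0.02 over all genes; this is 81.4% of the list called, beside 62.7% of all genes. Counts elsewhere, each out of 70, were 3 up and 8 down with Cnidii Rhizoma (11.8% of all genes called) and 4 and 7 with Rehmanniae Radix Preparata (7.45%). They were 1 and 0 with Astragali Radix (3.04%), 7 and 6 with Sagunja-tang (12.3%), and 10 and 6 with Samul-tang (13.7%). In those 5 extracts the medians lay between -0.04 and 0.03.

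**Figure D4:**
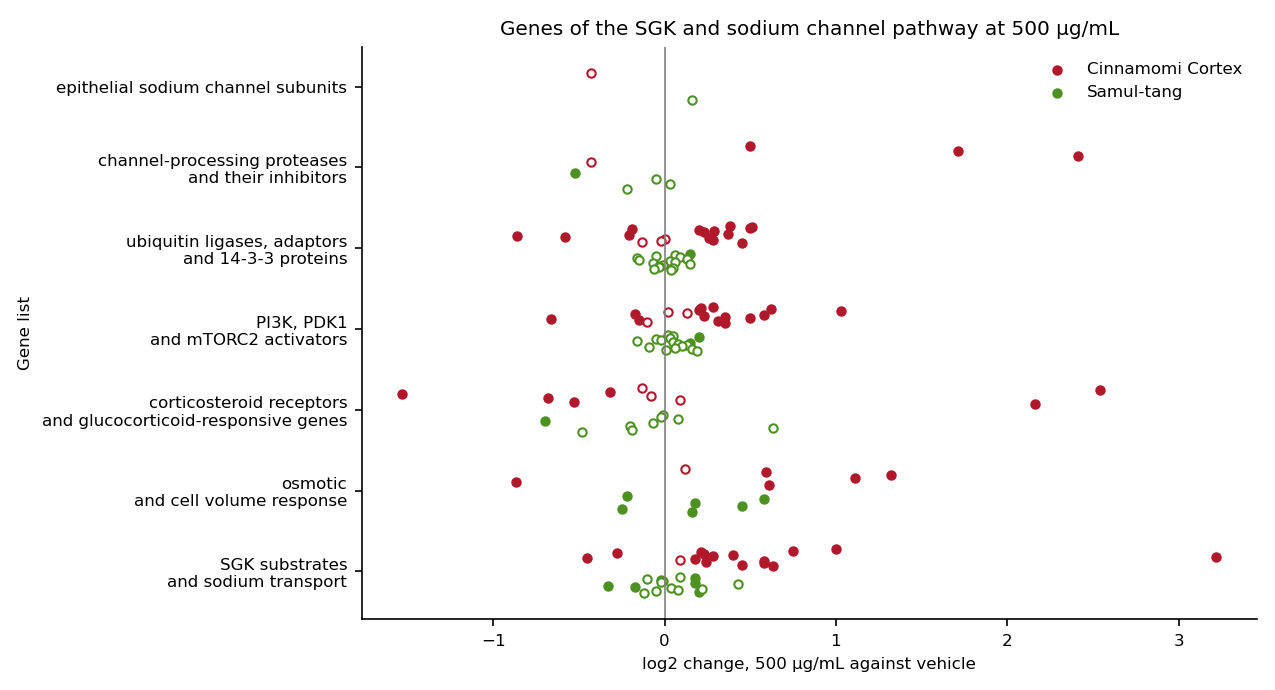
Log2 change of the tested pathway genes at 500 µg/mL against vehicle, by list, for Cinnamomi Cortex (red) and Samul-tang (green); each point is 1 gene, and filled points passed the test. The changes with Cinnamomi Cortex run from -1.53 (HSD11B2) to 3.22 (NDRG1), and those with Samul-tang from -0.70 (HSD11B2) to 0.63 (NR3C2, not called).

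Among the enzymes that process the channel, FURIN cleaves the alpha and gamma subunits. Against vehicle at 500 µg/mL, FURIN was called in the same direction as SCNN1A in 5 of 6 extracts. It rose from 28.3 ± 0.925 to 40.0 ± 1.35 CPM with Cinnamomi Cortex at 500 µg/mL (n = 3 each), a log2 change of 0.50 ± 0.070 (SE, adjusted p = 2.83e-08). It fell to 19.7 ± 0.702 CPM with Samul-tang (-0.52, adjusted p = 1.64e-06), and fell with Sagunja-tang (-0.40), Cnidii Rhizoma (-0.35) and Rehmanniae Radix Preparata (-0.35). With Astragali Radix it stood at -0.24 (adjusted p = 0.06). For the dose trend, no gene of this list was called in Cnidii Rhizoma, Rehmanniae Radix Preparata or Astragali Radix. PRSS8, prostasin, a channel-activating protease, rose with Cinnamomi Cortex from 6.38 ± 0.180 to 20.9 ± 1.91 CPM (adjusted p = 6.69e-21). SPINT1, an inhibitor of such serine proteases, rose from 3.29 ± 0.401 to 17.5 ± 1.09 CPM (adjusted p = 1.58e-24). PRSS8 fell with Sagunja-tang (-0.35, adjusted p = 0.0252). The remaining tested gene of this list, ST14, stood at -0.43 with Cinnamomi Cortex (adjusted p = 0.0679).

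Of the 17 ubiquitin ligases, adaptors, deubiquitinases and 14-3-3 genes, 10 rose and 4 fell with Cinnamomi Cortex at 500 µg/mL (82.4% called, beside 62.7% of all genes). NDFIP1, an adaptor that activates NEDD4-family ligases, rose by 0.51 on the log2 scale (adjusted p = 2.6e-10), and YWHAZ, 14-3-3 zeta, rose by 0.45 (adjusted p = 1.17e-11). USP2 and USP8, deubiquitinases, changed by -0.86 and -0.58 (adjusted p = 4.09e-16 and 4.87e-11). In the other 5 extracts between 0 and 3 genes of this list were called at 500 µg/mL, beside 3.04% to 13.7% of all genes. SMURF1, a relative of NEDD4L, fell with Cnidii Rhizoma (-0.26), Rehmanniae Radix Preparata (-0.23) and Sagunja-tang (-0.25). Against its own 20 µg/mL group the SMURF1 change with Rehmanniae Radix Preparata was 0.02.

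Among 17 tested genes of the phosphoinositide 3-kinase, PDK1 and mTORC2 list, 11 rose and 3 fell with Cinnamomi Cortex (82.4% called, beside 62.7%). INSR, the insulin receptor, rose from 63.2 ± 2.63 to 97.2 ± 1.12 CPM (adjusted p = 3.87e-17). PDPK1, which encodes PDK1, the kinase that activates SGK proteins, rose by 0.58 (adjusted p = 5.16e-17). PIK3R1, the regulatory p85 subunit, fell from 62.7 ± 2.91 to 39.6 ± 1.37 CPM (adjusted p = 2.33e-16), and PIK3CB rose by 0.50 (adjusted p = 1.69e-09). Elsewhere at 500 µg/mL the list gave 2 calls with Samul-tang (INSR at 0.20 and PDPK1 at 0.15), 1 with Rehmanniae Radix Preparata (PIK3R1 at -0.20) and none with the other 3. Of all genes, 13.7% were called with Samul-tang, 7.45% with Rehmanniae Radix Preparata and 3.04% to 12.3% with the other 3. Set against the 20 µg/mL group of Samul-tang, PDPK1 stood at -0.02.

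Of 9 tested genes of corticosteroid receptors and response, 2 rose and 4 fell with Cinnamomi Cortex at 500 µg/mL, which is 66.7% of the list and near the 62.7% of all genes. DUSP1, a MAP kinase phosphatase, rose from 10.7 ± 0.361 to 62.6 ± 3.96 CPM (adjusted p = 1.38e-28), and TSC22D3, known as GILZ, rose from 0.616 ± 0.11 to 2.78 ± 0.227 CPM (adjusted p = 8.45e-10). HSD11B2, which inactivates cortisol, fell from 20.1 ± 2.51 to 6.95 ± 0.692 CPM (adjusted p = 1.16e-17), and NR3C1, the glucocorticoid receptor, fell by 0.68 on the log2 scale (adjusted p = 5.68e-11). HSD11B2 also fell with Samul-tang (-0.70), Rehmanniae Radix Preparata (-0.37), Sagunja-tang (-0.37) and Cnidii Rhizoma (-0.28), and stood at -0.13 with Astragali Radix (adjusted p = 0.512). NR3C1 fell with Cnidii Rhizoma (-0.31) and Rehmanniae Radix Preparata (-0.28). HSD11B1 had no read and ZBTB16 had 4 reads in 60 libraries.

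With Cinnamomi Cortex 4 of the 6 genes of the osmotic and cell volume list rose and 1 fell (83.3% called, beside 62.7%). The list held the single pathway gene called with Astragali Radix. NFAT5, the transcription factor of the osmotic response, rose at 500 µg/mL of all 6 extracts, from 105 ± 6.28 CPM in vehicle to between 128 ± 4.98 (Cnidii Rhizoma) and 159 ± 11.3 (Cinnamomi Cortex). At 20 µg/mL it was already between 143 ± 9.11 and 162 ± 2.46 CPM, and its dose trend was called in Sagunja-tang alone, downward (-0.11). SLC5A3, the sodium and myo-inositol transporter, rose with Cinnamomi Cortex (1.11, adjusted p = 1.39e-20), Samul-tang (0.45) and Sagunja-tang (0.36), although against the 20 µg/mL group of Sagunja-tang it stood at -0.14. SLC38A2, an amino acid transporter, rose from 583 ± 48.8 to 1450 ± 45.0 CPM with Cinnamomi Cortex (adjusted p = 9.8e-27), and SLC6A6, the taurine transporter, rose by 0.61 (adjusted p = 2.72e-13).

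Of 16 tested genes for SGK substrates and sodium transport, 13 rose and 2 fell with Cinnamomi Cortex at 500 µg/mL (93.8% called, beside 62.7% of all genes). NDRG1, a phosphorylation target of SGK1, rose from 37.0 ± 4.93 to 346 ± 14.3 CPM (adjusted p = 6.64e-23). ATP1B1, a beta subunit of the sodium-potassium pump, rose by 0.75 on the log2 scale (adjusted p = 4.08e-20). STK39, a kinase of the cation-chloride cotransporter pathway, rose by 0.58 (adjusted p = 1.99e-13). NDRG1 also rose with Cnidii Rhizoma (0.79) and Rehmanniae Radix Preparata (0.74) against vehicle, and its dose trends there were -0.09 and -0.07, not called. The other called changes in 5 extracts were between -0.33 (NDRG2, Samul-tang) and 0.24 (WNK1, Sagunja-tang).

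Beside the changes with Cinnamomi Cortex at 500 µg/mL, the 9 markers of other cell types summed to 182 to 207 CPM per library, against 121 to 128 CPM in vehicle. CD68, a lysosomal protein used as a macrophage marker, rose from 58.3 ± 1.77 to 142 ± 10.6 CPM (edgeR adjusted p = 6.91e-15), while ACTA2 of smooth muscle fell from 64.8 ± 1.86 to 54.7 ± 2.7 CPM (adjusted p = 0.000147) and COL1A1 of fibroblasts from 0.357 ± 0.0682 to 0.0909 ± 0.0431 CPM (adjusted p = 0.00982). These were 3 of the 4 tested markers, beside 62.7% of all genes called in this comparison, with a median log2 change of -0.25. PTPRC, the defining marker of leukocytes, was at or near 0 throughout. Mitochondrial genes took 19.4% to 22.3% of counts in these 3 libraries and 13.0% to 22.6% in the other 57. The part of these values in the results was not tested.

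Likeness between genes was measured as Pearson's r over the 19 group means of log2 CPM. It was taken among 11936 other genes with a symbol and a mean of at least 2 CPM. Groups share libraries' scaling and, within an extract, the set, so r is a description. SGK1 was most like RHOU and EMP2 (both 0.89), GTF2IP4 (0.87), CASTOR3P (0.85) and SMLR1 (0.83), and most opposite to TRAP1 (-0.86), AATF (-0.85) and TAGLN (-0.85). Without the 3 Cinnamomi Cortex groups the first were SMLR1 (0.93), CACNA1H, G6PC1 and RHOU (0.91 each) and EMP2 (0.90). For SCNN1A high values were those of FDFT1, COMMD7 and ERG28 (0.92 each) and FURIN (0.89), and the lowest was FTSJ3 (-0.89). FDFT1 encodes squalene synthase of the cholesterol pathway; it had 711 ± 28.6 CPM in vehicle, 989 ± 23.7 with Cinnamomi Cortex and 533 ± 11.9 with Samul-tang at 500 µg/mL. Over the 16 groups without Cinnamomi Cortex, SCNN1A was most like TMEM97 (0.94), FDFT1 (0.92), FAM117A (0.90), ERG28 (0.87) and CXXC5 (0.87).

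SGK2 was most like PI4K2A (0.97), RTN2 and SLC2A6 (0.96 each), MPST and NR1H2 (0.95 each), and most opposite to GINS1 (-0.97). PI4K2A, a phosphatidylinositol 4-kinase, had 38.2 ± 2.79 CPM in vehicle and 62.8 ± 1.57 with Cinnamomi Cortex at 500 µg/mL. Over 16 groups only MPST (0.86) stayed among the first 5 for SGK2, with GPT2 (0.86), SNAI3-AS1 (0.85), F2 (0.83) and CNPY3 (0.83). SGK3 was most like C1orf109, ABHD10 and ZNF260 (0.94 each) and RAD21 and ANP32E (0.93 each), and over 16 groups CEP57 (0.93), HS2ST1 (0.91), DCK (0.88), DEK (0.88) and BZW1 (0.87) took their place. NEDD4L was most like CTDSPL (0.94), SETBP1 (0.92), AC004980.1 and JDP2 (0.91 each) and FOXP1 (0.90), and over 16 groups SETBP1 (0.88) and CTDSPL (0.86) stayed among the first 5.

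Among the 5 genes themselves, SGK2 and SGK3 were the most opposite pair, with r = -0.84 over 19 groups and -0.46 over 16. SGK1 and SCNN1A had r = 0.44 over 19 groups and 0.67 over the 16 without Cinnamomi Cortex, in which both were lower at the top dose. SGK1 and SGK3 had r = -0.02 and -0.01.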

How the data were processed

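Per the labels, HepG2 RNA (RIN over 7) went into strand-preserving libraries that were read in pairs of 100 bp. The authors deposited expected counts for 60675 genes in 270 columns; 60 columns matched the labels and the other 210 were not used. The unit was read from the values, of which 8.58% are not whole. RSEM 1.3.3, STAR 2.7.3a, Trim Galore 0.6.5 and FastQC 0.11.9 are listed with GRCh38 per the submitters' processing notes; the annotation and the strand setting are not given in the sources used here. Gene symbols came from a separate list of gene names, and from GENCODE 29 where that list gave none. GENCODE 29 held 57055 of the IDs.

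Counts were rounded and filtered (filterByExpr, 16167 genes), scaled by TMM and fitted in edgeR 4.0.16 (R 4.3.3) as 1 quasi-likelihood model with 19 group means and 57 libraries. Contrasts were each extract and dose against vehicle, the dose trend of each extract, and differences of trends within a set. An adjusted p under 0.05 (Benjamini-Hochberg within a contrast, two-sided) was a call. The members, the pathway lists and the rule for named genes (up to 4 of a list by adjusted p, genes near 0, and the 5 most and 3 least alike genes) were chosen with earlier results of these data known. Levels per length used merged exon length. The alternatives were RLE size factors, the Wald test of DESeq2 1.42.0, no filter, a replicate block, only the compared groups, other comparators, and leaving out libraries. The fit was tested on simulated data. Palmul-tang, with 1 library per dose, was not tested. Some genes that the rule names are not reported here.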

Additional observations from a re-analysis of the deposited data

Results flagged for a closer look

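Within the set that holds Cinnamomi Cortex and Astragali Radix, the dose trends of 4 of the 5 genes differed between the extracts in a test of the difference itself (edgeR, adjusted p under 0.05, called for 50.9% of all genes). The Cinnamomi Cortex trend minus the Astragali Radix trend, in log2 per 5-fold dose step, was 0.45 ± 0.059 (SE) for SCNN1A, 0.28 ± 0.046 for SGK2, -0.23 ± 0.070 for SGK3 and 0.09 ± 0.022 for NEDD4L. The difference for SGK1 was 0.04 ± 0.057 and was not called. Since these 5 genes were chosen with such values known, the differences are a description.

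Of the 70 tested pathway genes, 47 had dose trends that differed between Cinnamomi Cortex and Astragali Radix, beside 50.9% of all genes. Between Sagunja-tang and Samul-tang 1 had trends that differed, beside 0.142% of all genes. Groups of 3 libraries were too small for a search for outlying libraries. The effect of leaving out each library in turn is given below.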

How the results depend on the processing

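Over all alternatives, 85 values of the 5 genes lost their call in the same direction, 6 gained one, and 4 turned with a call in either fit. The other 1415 stayed on their side of the threshold; among them, values near 0 that were not called could change sign, such as SGK2 with Cnidii Rhizoma at 500 µg/mL (0.02, and -0.13 against its own 20 µg/mL group). With the 20 µg/mL group of the same extract in place of vehicle, the number of the 5 genes called at 500 µg/mL was 1 for Rehmanniae Radix Preparata (from 3) and 1 for Astragali Radix (from 2), and with the mean of all 20 µg/mL groups it was 1 and 1. With a fit of the compared groups alone it was 1 for Astragali Radix, and 1 for the trends of Cnidii Rhizoma and Sagunja-tang (from 2 each). The NEDD4L calls at 500 µg/mL for Rehmanniae Radix Preparata and Samul-tang were also lost with that fit and without the filter on low counts. For Samul-tang the NEDD4L call was lost against its own 20 µg/mL group too. Leaving out 1 library gave 1 to 2 for Astragali Radix at 500 µg/mL (1 without vehicle replicate 3) and for the trends of Cnidii Rhizoma and Sagunja-tang, 0 to 1 for that of Rehmanniae Radix Preparata, 2 to 3 for Rehmanniae Radix Preparata and Samul-tang at 500 µg/mL, and 5 throughout for Cinnamomi Cortex.

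Pathway genes called at 500 µg/mL, with the own 20 µg/mL group as comparator, numbered 4 for Cnidii Rhizoma (from 11), 1 for Rehmanniae Radix Preparata (from 11), 3 for Astragali Radix (from 1) and 7 for Sagunja-tang (from 13). With the mean of the 20 µg/mL groups they numbered 20, 5 and 11 for the first 3 and 6 for Samul-tang (from 16). With only the compared groups they were 7 for Cnidii Rhizoma, 4 for Sagunja-tang and 8 for Samul-tang, and for trends 2 for Cnidii Rhizoma (from 4), 0 for Rehmanniae Radix Preparata (from 1), 1 for Astragali Radix (from 3) and 3 for Samul-tang (from 13). Without a filter the Cnidii Rhizoma trend gave 2, with RLE size factors that of Rehmanniae Radix Preparata gave 0, and without the replicate 1 libraries of set 6 Astragali Radix at 500 µg/mL gave 3. Leaving out 1 library gave 7 to 12, 5 to 8, 1 to 3, 8 to 13 and 7 to 16 at 500 µg/mL for Cnidii Rhizoma, Rehmanniae Radix Preparata, Astragali Radix, Sagunja-tang and Samul-tang, and 2 to 4, 0 to 1, 1 to 3, 3 to 7 and 4 to 23 for their trends. Vehicle replicate 1 gave the lowest counts for Cnidii Rhizoma and Rehmanniae Radix Preparata, and Samul-tang replicate 3 at 500 µg/mL and replicates 1 and 2 at 20 µg/mL the extremes for Samul-tang.

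These changes at 500 µg/mL turned with the own 20 µg/mL group as comparator: NEDD4L for Rehmanniae Radix Preparata (-0.03) and Samul-tang (-0.01); NFAT5 for Cnidii Rhizoma (-0.15), Rehmanniae Radix Preparata (-0.11), Astragali Radix (-0.13) and Sagunja-tang (-0.21); NDRG1 for Cnidii Rhizoma (-0.18) and Rehmanniae Radix Preparata (-0.14); SMURF1 for Rehmanniae Radix Preparata (0.02); USP2 (0.00) and SLC5A3 (-0.14) for Sagunja-tang; and PDPK1 (-0.02), AKR1B1 (0.05), SLC38A2 (-0.10) and WNK1 (-0.05) for Samul-tang. With the mean of the 20 µg/mL groups they were NEDD4L for Cnidii Rhizoma (-0.10) and Rehmanniae Radix Preparata (-0.01), NFAT5 for Cnidii Rhizoma (-0.23), Rehmanniae Radix Preparata (-0.14), Astragali Radix (-0.12) and Sagunja-tang (-0.11), and SLC38A2 for Samul-tang (-0.11). The cause was not tested.

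Libraries share a replicate number, but the labels do not say what it marks. Deviations from the group means correlated within sets 5, 6 and 7 with a median r of 0.117, 0.209 and 0.0477 for the same number, with single pairs down to -0.526. For other numbers the medians were -0.04, -0.108 and -0.0495. In all, 40 of 54 libraries correlated best with their own number: 13 of 18 in set 5, 17 of 18 in set 6 and 10 of 18 in set 7. The numbers were not taken to pair the libraries, so a likeness by number, strongest in set 6, was left out of the main fit. The replicate block was a single term for the number, shared by vehicle and all sets, so it could not take up a likeness particular to a set. With this block, the counts of the 5 genes at 500 µg/mL for Cnidii Rhizoma, Rehmanniae Radix Preparata, Cinnamomi Cortex, Astragali Radix, Sagunja-tang and Samul-tang were 2, 3, 5, 2, 2 and 3, as without it. Pathway genes called numbered 12, 11, 57, 1, 13 and 20 in the same order. A pairing within sets was not tested. SCNN1A, with 165 to 490 reads per library, had the least depth of the 5.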
